A study of Mus musculus with 8 samples.

Results

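Expression of 10 neuropeptide genes that mark neurons of the spinal dorsal horn was examined in the lumbar spinal cord of mice that express a mutant SOD1 gene under a muscle promoter. The genes were Tac1, Penk, Sst, Npy, Pdyn, Grp, Gal, Cartpt, Nmu and Cck, and they were taken by the gene symbol that the array annotation pairs with each row of the deposited expression table. Each of the 10 had exactly 1 row, so they make up 10 of 41345 rows and 10 of the 22180 genes that have a row with a single symbol. The samples were 4 arrays from FVB control mice and 4 arrays from MLC/SOD1G93A mice, both at an age of 120 days. FVB is the inbred control strain. In the transgenic line, named MLC/SOD1G93A, a myosin light chain (MLC) promoter that works in muscle drives the mutant SOD1G93A gene, so the cord itself is not the tissue in which the transgene is driven. The labels give the tissue as lumbar spinal cord and the sample source as its ventral side. They give neither the sex of an animal nor whether each numbered sample is a separate animal, so p-values measure the spread between these samples.

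Neuropeptides are cut from larger precursor proteins inside secretory granules, are released by neurons beside a fast transmitter, and act on G protein-coupled receptors. In the dorsal horn, where sensory fibers for pain, itch, touch and temperature end, different interneurons make different peptides, and the peptide genes are widely used to name these neuron classes. Tac1 encodes the precursor of substance P and neurokinin A. Grp encodes gastrin-releasing peptide, known for its part in itch. Cck and Nmu encode cholecystokinin and neuromedin U, made by excitatory interneurons of the mouse dorsal horn. Penk and Pdyn encode the precursors of enkephalins and dynorphins, which act on opioid receptors, and Sst, Npy and Gal encode somatostatin, neuropeptide Y and galanin. Cartpt encodes the precursor of the CART peptides. Several of these genes are also used by primary sensory neurons, whose cell bodies lie in the dorsal root ganglia.

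Transcription of several neuropeptide genes is known to be driven through the cyclic AMP response element (CRE), to which the factor CREB binds. RefSeq promoter windows on GRCm38.p6, holding 250 bases before an annotated transcription start and 300 bases in all, were found for 8 of the 10 genes, and Penk and Grp had no entry. Both strands were searched for the full CRE, TGACGTCA, and for its core, CGTCA or TGACG, which the full CRE also holds. The full CRE was present in Cartpt and Sst, 2 of 8 genes, and in 508 of 32851 windows of all genes (1.55%). A core match was present in 5 of the 8 genes and in 17.8% of all windows. The matched stretches of these 5 genes are shown, Cartpt first because it is the gene with the lowest p below. No match was found in the windows of Npy, Pdyn and Gal. Each line runs 5′ to 3′ along the gene's strand, and capitals mark the CRE or its core.
Cartpt, chr13:99900767-99900816, minus strand: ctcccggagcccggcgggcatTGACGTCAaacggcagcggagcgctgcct
Sst, chr16:23890864-23890913, minus strand: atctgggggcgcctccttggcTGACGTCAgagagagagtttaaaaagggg
Tac1, chr6:7554996-7555045, plus strand: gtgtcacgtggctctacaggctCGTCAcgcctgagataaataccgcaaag
Cck, chr9:121495714-121495763, minus strand: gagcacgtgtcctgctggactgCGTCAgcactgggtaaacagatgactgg
Nmu, chr5:76363864-76363913, minus strand: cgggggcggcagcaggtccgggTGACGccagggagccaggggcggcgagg
The full CRE began 112 bases before the annotated start in Cartpt and 48 bases before it in Sst. The core match shown for Tac1 lay 43 bases before the start, with another 197 bases before it, those of Cck and Nmu lay 47 and 114 bases before their starts, and these matches are a description of sequence only.

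None of the 10 neuropeptide genes was up- or down-regulated at an adjusted p under 0.05 in MLC/SOD1G93A compared to FVB cord (limma, Benjamini-Hochberg adjustment over all rows), and neither was any other row of the array (0% of 41345 rows). The methods' test, an unpaired analysis of variance, gave 0 after the same adjustment and 1 of the 10 without it. At an unadjusted p under 0.05, limma gave 1 of the 10 genes, Cartpt, which was lower in the transgenic cord by 0.29 on the log2 scale. The background is 3.08% of all rows lower and 3.61% higher at that threshold, or 6.7% in either direction. By the sign of the mean difference 7 of the 10 genes were higher and 3 lower in MLC/SOD1G93A, with a median difference of 0.035 on the log2 scale beside 0.0041 over all rows. Differences ran from -0.29 (Cartpt) to 0.29 (Tac1), so no member reached the 1.5-fold change that the study required beside an unadjusted p under 0.05. Over all rows that pair of thresholds was passed by 259 rows upward and 142 downward with limma's p, and by 176 and 91 with that of the methods' test. Without FVB replicate 4 the limma counts were 359 and 219. In bulk tissue, fewer cells that make a peptide and less RNA per cell cannot be told apart.

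**Figure D1:**
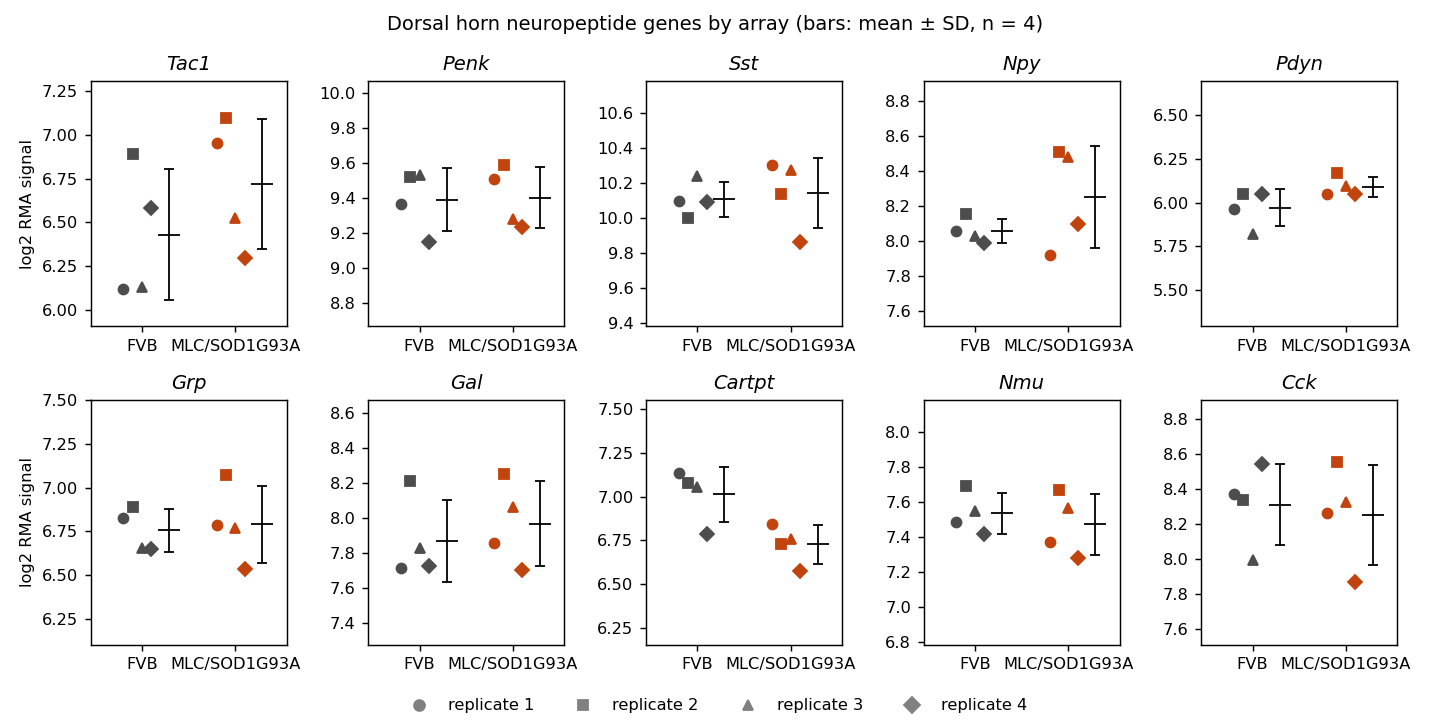
Log2 signal of the 10 neuropeptide genes (y axis, one panel per gene) on the 4 FVB and 4 MLC/SOD1G93A arrays (x axis), with marker shape giving the replicate and bars giving the mean ± SD (n = 4). The genotypes overlap in all 10 panels, and in the Cartpt panel 1 control array, FVB replicate 4 at 6.78, lies below the highest MLC/SOD1G93A value of 6.84.

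All values below are log2 signals as deposited, so a difference of 1 is a 2-fold change. Signals of different genes come from different probes and are not compared with each other. As a guide to background, the 1108 rows of olfactory receptor genes had a 95th percentile of 5.17 in mean signal, and all 10 peptide genes lay above it.

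Cartpt (row 17295496) measured 7.14, 7.08, 7.06 and 6.78 in FVB replicates 1 to 4 and 6.84, 6.73, 6.76 and 6.57 in MLC/SOD1G93A replicates 1 to 4. FVB replicates 1 to 3 were above every transgenic array, and FVB replicate 4 fell among the transgenic values. The group means were 7.01 ± 0.16 and 6.73 ± 0.11 (SD, n = 4), a difference of -0.29 ± 0.10 (SE, 95% interval -0.52 to -0.06), or a level 1.22-fold lower. Limma gave an unadjusted p of 0.0195 and an adjusted p of 0.684, and the exact two-sided permutation test gave p = 0.0571, where the smallest p that 70 relabellings of 8 arrays can give is 0.0286. The unadjusted p was 0.055 without FVB replicate 1 and 0.054 without MLC/SOD1G93A replicate 4. The mean of 10 caudal Hox genes, which mark the body level of a cord segment, moved with the genotype: it was 5.70, 5.65, 5.21 and 6.35 in FVB and 6.38, 6.16, 6.76 and 6.50 in MLC/SOD1G93A. The 3 arrays with the highest Cartpt signal were the 3 with the lowest Hox mean, and with that mean as a covariate the Cartpt difference was -0.14 ± 0.14 (SE, limma adjusted p = 0.969).

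Among the peptides of excitatory interneurons, Tac1 (row 17455954) had the widest spread of the 10 genes over the 8 arrays, 0.98 on the log2 scale. It measured 6.12, 6.89, 6.13 and 6.58 in FVB and 6.95, 7.10, 6.52 and 6.30 in MLC/SOD1G93A. High and low arrays occurred in both genotypes, and the groups overlapped over most of their range. The means were 6.43 ± 0.37 and 6.72 ± 0.37 (SD, n = 4), a difference of 0.29 ± 0.23 (SE, 95% interval -0.24 to 0.81) or 1.22-fold (adjusted p = 0.858, exact permutation p = 0.286). Single arrays moved this value, as it was 0.16 without MLC/SOD1G93A replicate 2, 0.18 and 0.19 without FVB replicates 1 and 3, and 0.44 without FVB replicate 2. On the 5 arrays with low Xist the Tac1 difference was 0.65 (adjusted p = 0.874). The mean of the sensory ganglion markers taken up below was 4.84, 5.83 and 4.74 on the FVB arrays among them. It was 6.49 and 6.54 on those of MLC/SOD1G93A, so this Tac1 difference cannot be told apart from one in sensory markers.

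Grp (row 17351396) stood at 6.83, 6.89, 6.66 and 6.65 in FVB and at 6.78, 7.07, 6.77 and 6.53 in MLC/SOD1G93A, with the highest and the lowest array both transgenic. Its difference was 0.034 ± 0.12 (SE, 95% interval -0.24 to 0.31, adjusted p = 0.974, exact permutation p = 0.743). For Cck (row 17532334) the FVB arrays gave 8.37, 8.33, 7.99 and 8.54 and the MLC/SOD1G93A arrays 8.26, 8.55, 8.32 and 7.87. Again the extremes were both transgenic, and the difference was -0.059 ± 0.17 (SE, 95% interval -0.44 to 0.32, adjusted p = 0.965, exact permutation p = 0.686). Nmu (row 17448997) was at 7.49, 7.69, 7.55 and 7.42 in FVB and at 7.37, 7.67, 7.57 and 7.28 in MLC/SOD1G93A. Replicate 2 was the highest array of each genotype, and the difference was -0.063 ± 0.11 (SE, 95% interval -0.31 to 0.18, adjusted p = 0.936, exact permutation p = 0.571).

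Of the opioid precursors, Penk (row 17423030) measured 9.37, 9.52, 9.53 and 9.15 in FVB and 9.51, 9.59, 9.28 and 9.23 in MLC/SOD1G93A. The genotype means were 9.39 ± 0.18 and 9.40 ± 0.17 (SD, n = 4), a difference of 0.011 ± 0.12 (SE, 95% interval -0.26 to 0.29, adjusted p = 0.991, exact permutation p = 1). Each genotype held both higher and lower arrays, which are taken up below with the sex of the animals. Pdyn (row 17391590) gave 5.97, 6.05, 5.82 and 6.05 in FVB and 6.05, 6.17, 6.09 and 6.05 in MLC/SOD1G93A. Its transgenic arrays lay close together, level with or above the upper FVB values, and the difference was 0.12 ± 0.077 (SE, 95% interval -0.06 to 0.29, adjusted p = 0.816, exact permutation p = 0.143).

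Sst (row 17329423) measured 10.10, 10.00, 10.24 and 10.09 in FVB and 10.31, 10.14, 10.27 and 9.86 in MLC/SOD1G93A, so that the transgenic arrays enclosed the control arrays. The difference was 0.037 ± 0.11 (SE, 95% interval -0.22 to 0.29, adjusted p = 0.968, exact permutation p = 0.743). Npy (row 17458514), by contrast, was tight in FVB, at 8.05, 8.15, 8.03 and 7.99, and spread in MLC/SOD1G93A, at 7.92, 8.51, 8.48 and 8.09. MLC/SOD1G93A replicates 2 and 3 lay above all other arrays and replicate 1 below them, with a difference of 0.19 ± 0.14 (SE, 95% interval -0.12 to 0.51, adjusted p = 0.838, exact permutation p = 0.343). The Npy difference was 0.30 without MLC/SOD1G93A replicate 1, and 0.11 and 0.12 without replicates 2 and 3. Gal (row 17360942) gave 7.71, 8.22, 7.83 and 7.73 in FVB and 7.86, 8.26, 8.06 and 7.70 in MLC/SOD1G93A. Replicate 2 was highest in both genotypes, as for Nmu, and the difference was 0.098 ± 0.15 (SE, 95% interval -0.25 to 0.45, adjusted p = 0.930, exact permutation p = 0.571).

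For the 9 genes other than Cartpt the 95% intervals held 0 and were widest for Tac1, up to 0.81, and narrowest for Pdyn, up to 0.29. Differences inside each interval are not excluded by these arrays. Dixon's test for a single outlying array found none in the 20 sets of 4 arrays, 10 genes in each genotype.

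The tissue on the arrays was then read from marker genes. Dorsal horn neuron genes outside the peptides, such as the transcription factors Lmx1b, Lbx1 and Prrxl1, had a row for 19 of 20 genes, and 17 of the 19 lay above the background guide although the sample source is labelled ventral. Lmx1b, for example, ranged from 6.83 to 7.06 in FVB and from 6.85 to 7.03 in MLC/SOD1G93A. The mean of the 19 genes was 6.45, 6.43, 6.35 and 6.46 in FVB and 6.46, 6.43, 6.53 and 6.44 in MLC/SOD1G93A, with overlapping groups. Of these genes, 11 were higher and 8 lower, with a median difference of 0.026. An unadjusted p under 0.05 in limma was found for 2 of 19, Maf and Nmbr, beside 6.7% of all rows. Maf was higher by 0.24 (adjusted p = 0.695, exact permutation p = 0.0571), although its other, dimmer row differed by -0.21. Nmbr, the neuromedin B receptor, was higher by 0.29 (adjusted p = 0.731, exact permutation p = 0.0286), without overlap between the groups, as in 4.21% of all rows. In 10 relations of a peptide gene to this mean over the 8 arrays, none had an adjusted p under 0.05 in an exact permutation test. The lowest Pearson p was that of Pdyn (r = 0.67, exact p = 0.0744, adjusted 0.744; Spearman rho = 0.17, exact p = 0.703), and r was -0.48 without the 2 arrays farthest from the median, FVB replicate 3 and MLC/SOD1G93A replicate 3. The lowest Spearman p was that of Penk (rho = -0.71, exact p = 0.0576, adjusted 0.576; Pearson r = -0.48, exact p = 0.251), and r was -0.42 without those arrays.

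Markers of dorsal root ganglion neurons split the arrays regardless of genotype. The mean of 14 such genes was 4.84, 5.83, 4.74 and 6.01 in FVB and 6.49, 6.54, 4.83 and 4.91 in MLC/SOD1G93A, and Scn10a, a sodium channel of nociceptors, was at 7.15 to 8.72 on the 4 higher arrays and at 3.90 to 4.21 on the other 4. By genotype, 13 of the 14 markers were higher in MLC/SOD1G93A and none had an unadjusted p under 0.05, the lowest being those of Trpm8 (0.48 higher, adjusted p = 0.840, exact permutation p = 0.257) and Lpar3 (0.31 higher, adjusted p = 0.868, exact permutation p = 0.371). Both have a mean under the background guide, as do 6 of the 14 markers. Tac1, which sensory neurons also make, followed this split: it was at 6.58 to 7.10 on the 4 arrays with high sensory markers and at 6.12 to 6.52 on the other 4, without overlap. The step was 0.61 within FVB and 0.62 within MLC/SOD1G93A beside 0.29 between genotypes. Tac1 was the 1 gene of the 10 whose values parted in this way, beside 3.09% of all rows. Within MLC/SOD1G93A the arrays with high sensory markers were those with low Xist, a gene of female cells taken up below. In that genotype the Tac1 step therefore cannot be told apart from a step by sex. With the sensory marker mean as a covariate the Tac1 genotype difference was 0.15 (limma adjusted p = 0.859), and on the 4 arrays with low sensory markers it was 0.29 (limma adjusted p = 0.759). On those 4 arrays Xist was at 4.46 and 3.63 in FVB and at 10.38 and 10.50 in MLC/SOD1G93A. The difference there cannot be told apart from one of sex. Their caudal Hox means differed too, at 5.70 and 5.21 in FVB and 6.76 and 6.50 in MLC/SOD1G93A. Because the sensory marker means fall into separate clusters, no correlation with them is given.

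Genes with the pattern most like that of Tac1 over the 8 arrays, among rows with a single symbol, a mean above the median row and a span over 1, included Plxnc1 (r = 0.94), Dgkh (r = 0.94) and Pirt (r = 0.93). They were chosen after their values were seen. Because a high r with Tac1 was the rule, sharing its high arrays follows from the choice. Mettl7a3 (r = 0.94) ranked above Pirt, and none of these genes is on the list of sensory ganglion markers. Pirt, a regulator of TRP channels in mouse sensory neurons, measured 5.05, 7.34, 4.79 and 7.13 in FVB and 8.08, 8.31, 5.07 and 4.89 in MLC/SOD1G93A, with the same 4 arrays high. D130079A08Rik had the highest r, 0.96, with 4.94 to 6.02 in FVB.

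Xist, which only female cells express, had a signal of 10.4 to 10.5 in 3 samples, namely replicate 4 of FVB with replicates 3 and 4 of MLC/SOD1G93A. In the other 5 it ranged from 3.63 to 4.50 while Uty, a gene of the Y chromosome, was at 7.90 to 8.16, so the sexes were unequal between the genotypes. Penk followed this split. It ranged from 9.15 to 9.28 in the 3 female samples and from 9.37 to 9.59 in the other 5, without overlap. The Penk step was -0.32 within FVB and -0.29 within MLC/SOD1G93A. Within FVB it rests on replicate 4 alone, which also had the highest caudal Hox mean of that genotype. There the Penk step by sex cannot be told apart from a step in the Hox mean. Penk was the 1 gene of the 10 with such a separation, beside 4.96% of all rows. Within MLC/SOD1G93A the female samples were those with low sensory markers, so there the Penk step cannot be told apart from a step by sensory markers. Cartpt values overlapped between female and male samples, but the step from male to female was -0.31 within FVB and -0.12 within MLC/SOD1G93A. The FVB step of Cartpt also rests on replicate 4 alone, whose caudal Hox mean was 6.35 beside 5.21 to 5.70 on the other FVB arrays. Within FVB the Cartpt step by sex and the relation of Cartpt to the Hox mean therefore cannot be told apart. With Xist as a covariate the Cartpt genotype difference was -0.24, and among the 5 male samples it was -0.30 ± 0.10 (SE, limma adjusted p = 0.827). In those 5 samples the caudal Hox mean was 5.70, 5.65 and 5.21 in FVB and 6.38 and 6.16 in MLC/SOD1G93A. Their sensory marker means were parted by genotype too, so this Cartpt difference cannot be told apart from one in either set of markers.

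**Figure D2:**
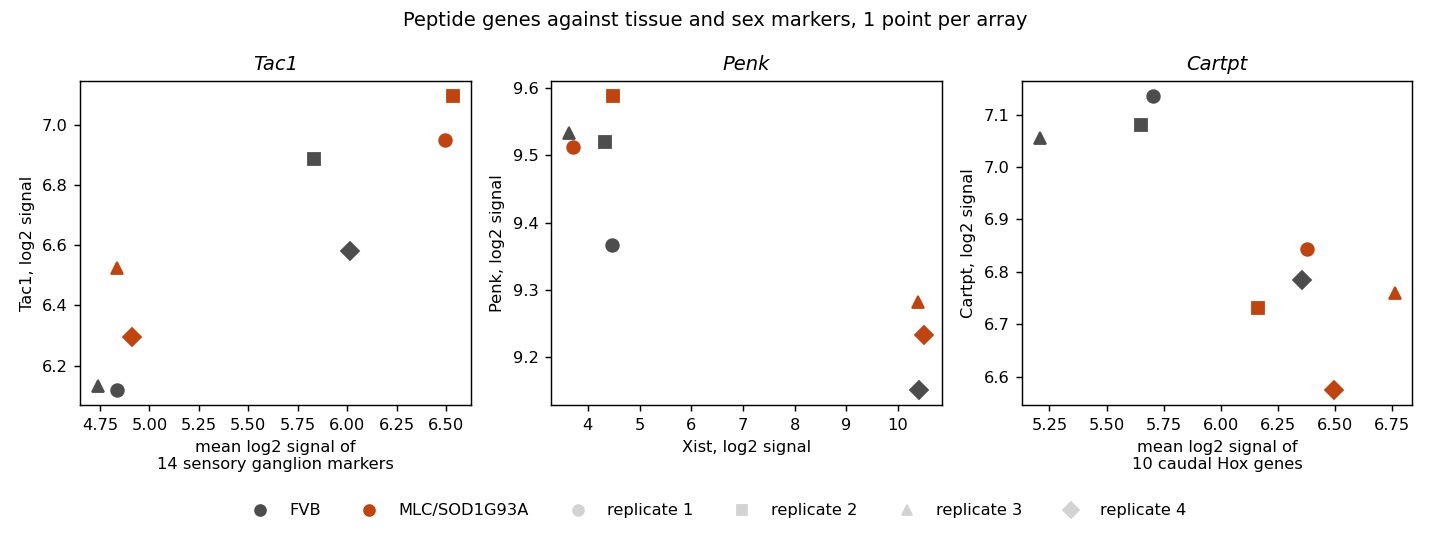
Log2 signal of Tac1, Penk and Cartpt (y axes) against the mean log2 signal of 14 sensory ganglion markers, the log2 signal of Xist and the mean log2 signal of 10 caudal Hox genes (x axes), with 1 point per array, color for genotype and marker shape for replicate. Tac1 is at or above 6.58 on the 4 arrays with high sensory markers, Penk is at or below 9.28 on the 3 arrays with high Xist, and Cartpt is at or above 7.06 on the 3 FVB arrays with the lowest Hox mean.

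Other tissue markers moved with the genotype, and their part in the peptide values was not tested beyond the covariates named here. Of 10 caudal Hox genes 9 were higher in MLC/SOD1G93A, 8 with an unadjusted p under 0.05, with a median difference of 0.56, and Hoxc10 (0.30) and Hoxd10 (1.31) had the lowest p. All 7 Schwann cell markers were higher, 6 with an unadjusted p under 0.05 (median 0.60), the lowest p being those of Cdh19 and Drp2. All 11 oligodendrocyte markers were lower, 9 with an unadjusted p under 0.05 (median -0.36), led by Opalin and Gal3st1. Of 10 astrocyte markers 9 were lower, 3 at that threshold, with Gfap and Sox9 first. Over all rows 6.7% had an unadjusted p under 0.05 in limma in either direction. From these same samples the study listed Egr2, Drp2, Dhh, Hoxd10 and Hoxc13 as higher and Opalin as lower. It also gave Mag as lower, so the directions of these genes are not independent evidence. General neuron markers divided evenly, 8 higher and 8 lower, with Slc32a1 (-0.19) and Syt1 (0.097) first in order of p. Their mean per array was 9.76 to 9.89 in FVB and 9.83 to 9.89 in MLC/SOD1G93A. The other, dimmer row of Slc32a1 differed by -0.37 (limma unadjusted p = 0.00924, adjusted p = 0.684), with a mean of 5.04, under the background guide. Motor neuron markers were lower for 10 of 12 genes, none of the 10 with an unadjusted p under 0.05, with Mmp9 at -0.23 as the lowest p among them. Uts2b was 0.25 higher (adjusted p = 0.721, exact permutation p = 0.0286), but at 4.12 to 4.72 it lay under the background guide on every array. Of 10 ventral interneuron markers none had an unadjusted p under 0.05, and Lhx1 and Foxp2, first in order of p, differed by -0.14 and 0.084.

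The peptide genes tended to go up and down together from array to array. Over 8 arrays 40 of the 45 pairs had a Pearson r above 0, 6 pairs had an r above 0.7, and the median r was 0.42, or 0.46 when each genotype was centered on its own mean. Gal and Nmu were the most alike (r = 0.85), followed by Grp with Gal (r = 0.79) and Grp with Nmu (r = 0.77). Pdyn and Cartpt had the lowest r over the deposited values, -0.60, but -0.25 after centering, when Sst with Pdyn was lowest at -0.31. For Sst the highest r was 0.35, with Penk, and after centering 0.52, with Cartpt. These values share the same 8 arrays and their normalization and are given as a description.

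**Figure D3:**
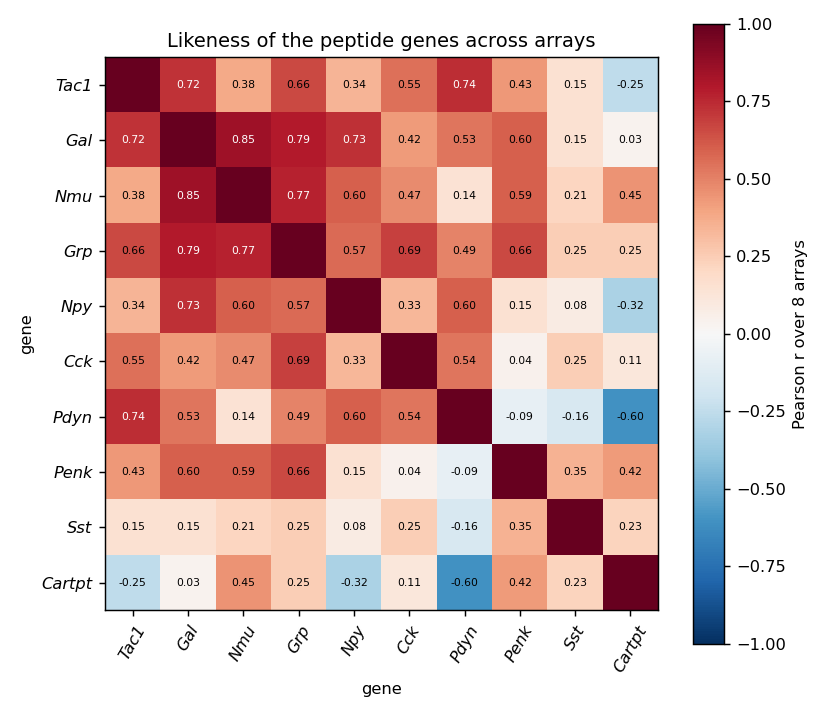
Pearson r of each pair of the 10 neuropeptide genes over the 8 arrays (both axes list the genes; color and number give r from -1 to 1). Gal, Nmu and Grp form the block of highest values, between 0.77 and 0.85, and Pdyn with Cartpt is the lowest of these uncentered values at -0.60.

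Receptors of these peptides were measured for 22 of 23 genes, and Galr3 was not analysed here because its rows carry several symbols. By sign 13 were higher and 9 lower in MLC/SOD1G93A, with a median difference of 0.016. None passed the adjusted threshold, and 2 had an unadjusted p under 0.05 in limma, 1 higher and 1 lower, beside 6.7% of all rows. Npy1r, the Y1 receptor of neuropeptide Y, was at 6.45, 6.41, 6.35 and 6.50 in FVB and at 6.53, 6.66, 6.60 and 6.68 in MLC/SOD1G93A. Every transgenic array lay above every control array, as in 4.21% of all rows, with a difference of 0.19 ± 0.069 (SE, unadjusted p = 0.0251, adjusted p = 0.695, exact permutation p = 0.0286). Npy4r was lower by 0.23 (0.097 SE, adjusted p = 0.742, exact permutation p = 0.0857), but at 3.66 to 4.21 it lay under the background guide on every array. The receptors next in order of p were Npy2r, higher by 0.32 (adjusted p = 0.747, exact permutation p = 0.114), and Cckar, higher by 0.37 (adjusted p = 0.796, exact permutation p = 0.171), and both had a mean under the background guide.

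Receptors of the other peptides differed less. The neurokinin 1 receptor Tacr1, on which substance P acts, measured 7.10, 7.24, 6.99 and 7.22 in FVB and 7.12, 7.40, 7.28 and 7.08 in MLC/SOD1G93A, with overlapping groups (difference 0.083 ± 0.099 SE, adjusted p = 0.908, exact permutation p = 0.400). The opioid receptor genes Oprm1, Oprd1 and Oprk1 differed by 0.11, -0.058 and -0.038, with limma adjusted p from 0.872 to 0.974. Grpr, the receptor of gastrin-releasing peptide, differed by 0.061 ± 0.072 (SE, adjusted p = 0.908, exact permutation p = 0.314), Galr1 by 0.15 ± 0.10 (SE, adjusted p = 0.831, exact permutation p = 0.229) and Nmur2, a neuromedin U receptor, by 0.091 ± 0.13 (SE, adjusted p = 0.921, exact permutation p = 0.600).

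**Figure D4:**
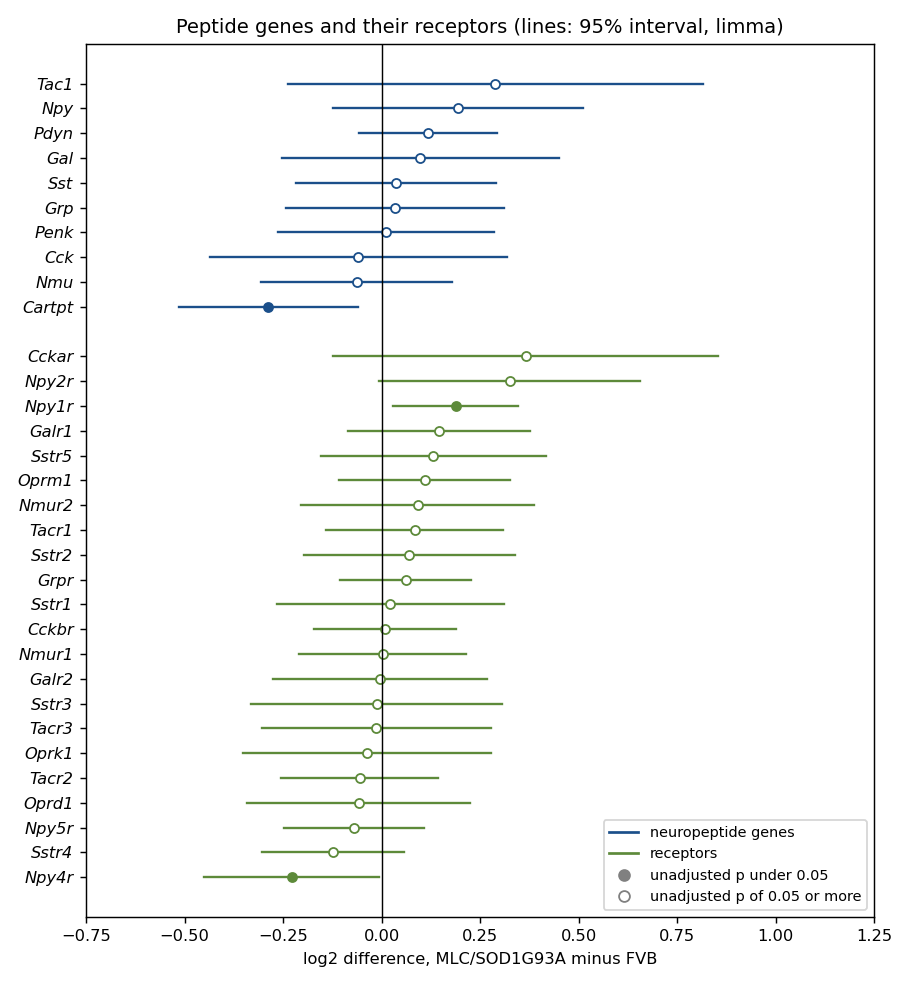
Log2 difference, MLC/SOD1G93A minus FVB (x axis), of the 10 neuropeptide genes and of 22 genes for their receptors (y axis), with limma's 95% interval; filled points have an unadjusted p under 0.05. Cartpt is the filled point among the peptides at -0.29, and Npy1r at 0.19 and Npy4r at -0.23 are the filled points among the receptors.

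Other neuropeptide genes were measured for 30 of 31 genes listed, 15 higher and 15 lower in MLC/SOD1G93A, with a median difference of 0.012. Of these, 2 had an unadjusted p under 0.05, both lower, beside 6.7% of all rows in either direction, and none passed the adjusted threshold. Avp, the vasopressin gene, was lower by 0.24 ± 0.087 (SE, unadjusted p = 0.0246, adjusted p = 0.692, exact permutation p = 0.0571), at 6.09, 6.06, 6.10 and 5.95 in FVB and 5.72, 6.02, 5.75 and 5.77 in MLC/SOD1G93A, so the groups overlapped through 1 array of each. Crh, which encodes corticotropin-releasing hormone, was lower by 0.27 ± 0.072 (SE, unadjusted p = 0.00540, adjusted p = 0.684, exact permutation p = 0.0286), but its highest array stood at 3.88, under the background guide. Hcrt and Nms, higher by 0.20 (adjusted p = 0.745, exact permutation p = 0.0571) and 0.26 (adjusted p = 0.747, exact permutation p = 0.114), also had a mean under that guide, as did 11 of the 30 genes. Tac2, the neurokinin B gene of dorsal horn neurons, ranged from 9.35 to 9.69 in FVB and from 9.33 to 9.65 in MLC/SOD1G93A.

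The enzymes and granule proteins that turn a precursor into a released peptide were measured for 20 of 21 genes, all above the background guide. Of these 12 were higher and 8 lower, with a median difference of 0.031, and 1 had an unadjusted p under 0.05, beside 6.7% of all rows. Cpd, a carboxypeptidase of the trans-Golgi network, was lower by 0.24 ± 0.079 (SE, unadjusted p = 0.0150, adjusted p = 0.684, exact permutation p = 0.0286), with 9.46 to 9.66 in FVB and 9.22 to 9.46 in MLC/SOD1G93A, without overlap before rounding. Furin, a proprotein convertase, was lower by 0.14 (adjusted p = 0.750, exact permutation p = 0.0286) and did not overlap either, as in 4.21% of all rows. Pam, which amidates the end of peptides such as substance P, was higher by 0.11 (adjusted p = 0.799, exact permutation p = 0.0571), and Cadps2, a priming factor of dense core vesicles, by 0.18 (adjusted p = 0.801, exact permutation p = 0.143). Cpe, the main carboxypeptidase of neuropeptide maturation, differed by 0.031 ± 0.060 (SE, adjusted p = 0.944, exact permutation p = 0.229), and its 8 arrays lay between 10.53 and 10.63.

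Peptidases that end peptide signals were measured for 14 of 15 genes, 6 higher and 8 lower, with a median difference of -0.026. Of these, 3 had an unadjusted p under 0.05, 2 higher and 1 lower, beside 6.7% of all rows. None passed the adjusted threshold, and the groups did not overlap for 2 of the 14 genes, beside 4.21% of all rows. Mme, or neprilysin, which cleaves enkephalins and substance P, was at 7.45, 7.34, 7.72 and 7.80 in FVB and at 8.28, 8.49, 7.76 and 8.19 in MLC/SOD1G93A. MLC/SOD1G93A replicate 3 fell below FVB replicate 4, and the other 3 transgenic arrays lay above all controls. The difference was 0.60 ± 0.17 (SE), or 1.52-fold (unadjusted p = 0.00694, adjusted p = 0.684, exact permutation p = 0.0571), and the study selected Mme from these samples, so its direction is not independent evidence. Mme is also known from Schwann cells, whose markers moved with the genotype, and their part in the Mme difference was not tested. Ece2, an endothelin-converting enzyme, was higher by 0.26 ± 0.077 (SE, unadjusted p = 0.0101, adjusted p = 0.684, exact permutation p = 0.0286) and Dpp3, a dipeptidyl peptidase that cleaves enkephalins, was lower by 0.19 ± 0.072 (SE, unadjusted p = 0.0281, adjusted p = 0.707, exact permutation p = 0.0286), both without overlap between the groups. Ace differed by -0.18 ± 0.10 (SE, adjusted p = 0.783, exact permutation p = 0.171).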

How the data were processed

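Lumbar cord RNA of 4 FVB and 4 MLC/SOD1G93A samples was measured on the Affymetrix platform Mouse Gene 2.0 ST. The deposited values are log2 signals, one per transcript cluster and array, which the authors made by Robust Multichip Average (RMA) with sketch quantile normalization. Their methods name the Transcriptome Analysis Console and the submitters' processing notes name Affymetrix Expression Console and RMA; versions, filters and the genome build of the annotation are not given in the sources used here. Because quantile normalization gives every array nearly the same distribution, a shift of most genes in one direction is not visible. Arrays correlated at r = 0.978 to 0.986 within and 0.977 to 0.987 between genotypes over all rows. The number of arrays limits the precision.

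Symbols came from the platform annotation: 23521 rows have 1 symbol, 1820 several and 16004 none, and only rows with 1 symbol were named. Where a gene had several rows, the row with the highest mean stood for it. The authors' comparison was an unpaired one-way analysis of variance, with a fold over 1.5 required beside an unadjusted p under 0.05. Here limma 3.58.1 (R 4.3.3; lmFit and eBayes) was run on all 41345 rows without covariates, with Benjamini-Hochberg adjustment over all rows, after it was tested on simulated data. Single genes were also tested by an exact permutation test (scipy 1.17.1). Intervals are at 95%.

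The members and gene lists were chosen with earlier results of these data known. Named were all 10 members, the 4 genes of lowest p in each list of receptors, other peptides, processing and degrading genes, receptors with an unadjusted p under 0.05, and 2 genes of each marker list; further genes in the text illustrate a list by their role. The rule for genes alike in pattern took members spanning over 1 on the log2 scale, which 0 did, so those for Tac1 were added after values were seen. Listed genes without a single-symbol row, such as Calca and Pcsk2, were not analysed here. Promoter windows and sequences are those of RefSeq on GRCm38.p6. Alternatives were other normalizations, filters, variance models, tests and covariates, a replicate block, and fits with arrays left out.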

Additional observations from a re-analysis of the deposited data

How the results depend on the processing

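In each of 22 alternatives, 0 of the neuropeptide genes and 0 genes of the receptor, other peptide, processing and peptidase lists passed the adjusted threshold in limma or in the methods' test, while the members with an unadjusted p under 0.05 numbered 0 to 2 (1). Such counts ran from 0 to 2 for receptors (2), 1 to 5 for other peptides (2), 0 to 4 for processing genes (1) and 0 to 3 for peptidases (3), with the count of the unaltered fit in parentheses. Cartpt was lower in all 22, from -0.43 to -0.14, with an unadjusted p under 0.05 in 19; Tac1 (0.15 to 0.65), Npy (0.11 to 0.30), Pdyn (0.034 to 0.18) and Gal (0.0032 to 0.22) were higher in all 22. The alternatives draw on the same arrays, so they are not independent of each other. Differences near 0 changed sign. Leaving out each array in turn gave -0.069 to 0.068 for Penk, -0.061 to 0.12 for Grp, -0.017 to 0.13 for Sst, -0.13 to 0.00039 for Nmu and -0.16 to 0.069 for Cck. With the sensory marker mean as a covariate Penk was at -0.015 and Grp at -0.0065. On the 4 arrays with low sensory markers, where genotype cannot be told apart from sex, Penk was at -0.19, Sst at -0.10 and Grp at -0.092. The lowest Cartpt difference, -0.43, came from those arrays too. A fit with the mean of the caudal Hox genes put Nmu at 0.038 and Penk at 0.30 (unadjusted p under 0.05, adjusted p = 0.947, limma). On the 5 arrays with low Xist Cck was at 0.17. The cause was not tested. Deviations of same-numbered arrays had r = -0.044, 0.18, -0.083 and 0.24 for replicates 1 to 4, beside -0.25 to 0.16 for arrays of different number. The r of replicates 2 and 4 lay above that range and the r of replicates 1 and 3 within it. The r did not settle whether the numbers are pairs, and they were not read as pairs. With the replicate block the Cartpt difference was -0.29 (limma adjusted p = 0.730) and 0 members passed the adjusted threshold. Taking every row of a gene could give no other value, since each gene of these 5 lists has 1 row. With 4 arrays per genotype no exact p can fall below 0.0286.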
